A study of Caenorhabditis elegans with 15 samples.

Results

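The comparison set the rde-4 and zfp-1 mutants of Caenorhabditis elegans together against wild type, the alg-1 mutant and the lin-35 mutant together, and asked which transcripts the 2 mutants had in common that set them apart from the other 3 strains. Samples were assigned by their strain alone, so 5 of 13 biological samples (3 rde-4, 2 zfp-1) were compared with the other 8 (3 wild type, 3 alg-1, 2 lin-35), hybridised to 15 Affymetrix arrays in all. The wild type was N2. The mutant strains were BB11 with rde-4(ne299) III, RB774 with zfp-1(ok554) III, VC446 with alg-1(gk214) X, and MT3033 with lin-35(n745) unc-13(e1091) I. The last of these also carries an unc-13 allele, so its values belong to 2 mutations at once, and each genotype was studied in 1 strain. Every population was derived from bleached hermaphrodites, hatched overnight without food, fed OP50 bacteria for 6 to 7 h and collected as a mixture of L1 and L2 larvae. Replicates were separately grown populations, and replicate 2 of zfp-1 and replicate 2 of lin-35 were each hybridised to 2 arrays, which were averaged.

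RDE-4 is a double-stranded RNA-binding protein that acts with Dicer when long double-stranded RNA is cut into siRNAs. ZFP-1 is a PHD zinc finger protein of chromatin that was linked to RNA interference in genetic screens. ALG-1 is an Argonaute of the microRNA pathway, LIN-35 is the retinoblastoma protein of the worm, and UNC-13 primes synaptic vesicles for release. The young larva has a large intestine, which secretes digestive proteases, lysozymes and lectins, and a nervous system that releases neuropeptides.

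Levels are given on the log2 scale of the deposited GCRMA values, in which a difference of 1 is a 2-fold change, and a value below 5 was taken as dim. Genes at 5 or more numbered from 8140 to 8219 per array in the 2 mutants and from 8216 to 8400 in the other strains. Array medians lay between 4.48 and 4.56 in the 2 mutants and between 4.59 and 4.86 in the other strains, so the 2 sides did not overlap in that measure. Wild-type replicates 1 and 2 stood apart from the rest on the second principal component (46.1 and 49.3, against 13.6 for replicate 3). The alg-1 replicates 1 and 3 differed by an SD of 0.27 across genes, between the values for 2 arrays of the same sample (0.22 and 0.36). The rde-4 replicate 2 had the largest 3′ minus 5′ difference of the actin control probe sets (2.96, other arrays at most 2.22). Of 15 intestinal markers 14 were at 5 or more in every sample, and all 12 neuronal and all 12 body wall muscle markers were too, so these tissues were detected in every strain. Other tissues had fewer markers at 5 or more: 8 to 9 of 10 for hypodermis, 7 to 8 of 12 for pharynx, 4 to 5 of 7 for glia and 1 of 4 for coelomocytes. The whole animal was measured, and fewer cells of a type and less RNA per cell cannot be told apart.

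Of 8653 genes tested, 831 passed in limma at a Benjamini-Hochberg adjusted p of 0.05: 229 were higher in the 2 mutants (2.65% of genes tested) and 602 lower (6.96%). The higher genes were 27.6% of those that passed, and 38% (351 of 923) once array medians were subtracted. The median change was -1.07 among the falls and 0.73 among the rises, against 0.01 over all genes tested, and changes of at least 1 on the log2 scale numbered 344 and 56. Of the falls, 19.8% (and 0% of the rises) had samples at 5 or more in lin-35 alone, so they entered the test through that strain, which favours a fall. Without them the median fall was -0.996 and 240 falls were of at least 1. With lin-35 left out of the reference 358 genes passed, 140 higher and 218 lower. These p-values measure the spread between populations within a strain. Treating the 5 strains as the units, 1 assignment in 10 would put this pair first, so no p-value below 0.1 could be reached. With the strain as a random block in limma, 2 genes passed, srw-85 and Y51H4A.25 (adjusted p = 0.049), and 1113 had an unadjusted p under 0.05. That fit uses 1 correlation between samples of a strain (0.234) for all genes. Samples thus still count in part as units, and its p-values are not those of a test over 5 strains.

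A stricter description asks that all 5 samples of the 2 mutants lie beyond all 8 others. This held for 61 of the rises (0.705% of genes tested) and 99 of the falls (1.14%). Without the requirement to pass the test, 1.23% of genes tested lay wholly above and 1.38% wholly below. With wild-type replicate 3 as the only wild-type sample, 430 genes passed, of which 53 were higher and 377 lower, and 100 of them had no overlap of samples. With alg-1 replicates 1 and 3 counted as 1 sample, 686 passed. Without either zfp-1 population the count fell to 350 (replicate 1 left out) or 353 (replicate 2 left out), and without lin-35 replicate 1 to 491. Genes that passed without overlap were then 95, 92 and 103, and 245 without rde-4 replicate 2. Genes closest to the threshold were F13D11.4 inside it (-0.95 ± 0.27, adjusted p = 0.04996 in limma) and Y69H2.7 outside (-0.67 ± 0.19, adjusted p = 0.0501 in limma).

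The largest difference by far belonged to srw-85, which encodes a receptor of the SRW family of chemoreceptor-like proteins and lies on chromosome V. Its level was 9.05, 8.93 and 9.24 in wild type, 9.48, 9.64 and 9.57 in alg-1, and 9.89 and 9.67 in lin-35. In rde-4 it was 2.503, 2.49 and 2.65, and in zfp-1 it was 2.63 and 2.77. The gene was thus high in all 8 samples of the other strains and close to the bottom of the scale in all 5 of the 2 mutants. The change was -6.85 ± 0.11 (SE, limma adjusted p = 6.1e-12), which is at least 22.2-fold when the dim side is set to 5. srw-85 was the 1 gene that passed when each of the 2 mutants was compared with each of the other 3 strains and the largest of the 6 p-values was adjusted over all genes. Before adjustment, that largest p was under 0.05 for 7 genes higher and 36 genes lower.

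Of 114 srw genes with a probe set, only srw-85 and srw-84 reached the level needed for testing, and srw-84 differed by 0.19 ± 0.14 (limma adjusted p = 0.41). The genes next to srw-85 were looked up in the RefSeq annotation, 5 on either side, a choice made after its values were seen. Of these 10 neighbours 6 had a probe set and 4 were tested. C25F9.5, the fifth gene on one side, lay between 6.38 and 7.28 in the 2 mutants and between 7.29 and 8.83 in the other strains (-0.94 ± 0.18, limma adjusted p = 0.0073). Unlike srw-85, it did not keep passing when each reference strain was left out in turn. The remaining 3 tested neighbours differed by -0.40 (C25F9.4), -0.51 (M04C3.1) and -0.21 (M04C3.2), and none passed. The nearest neighbour with a probe set, C25F9.2, was dim in every strain, between 2.33 and 3.87, so it gives no reading of the region beside srw-85.

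**Figure D1:**
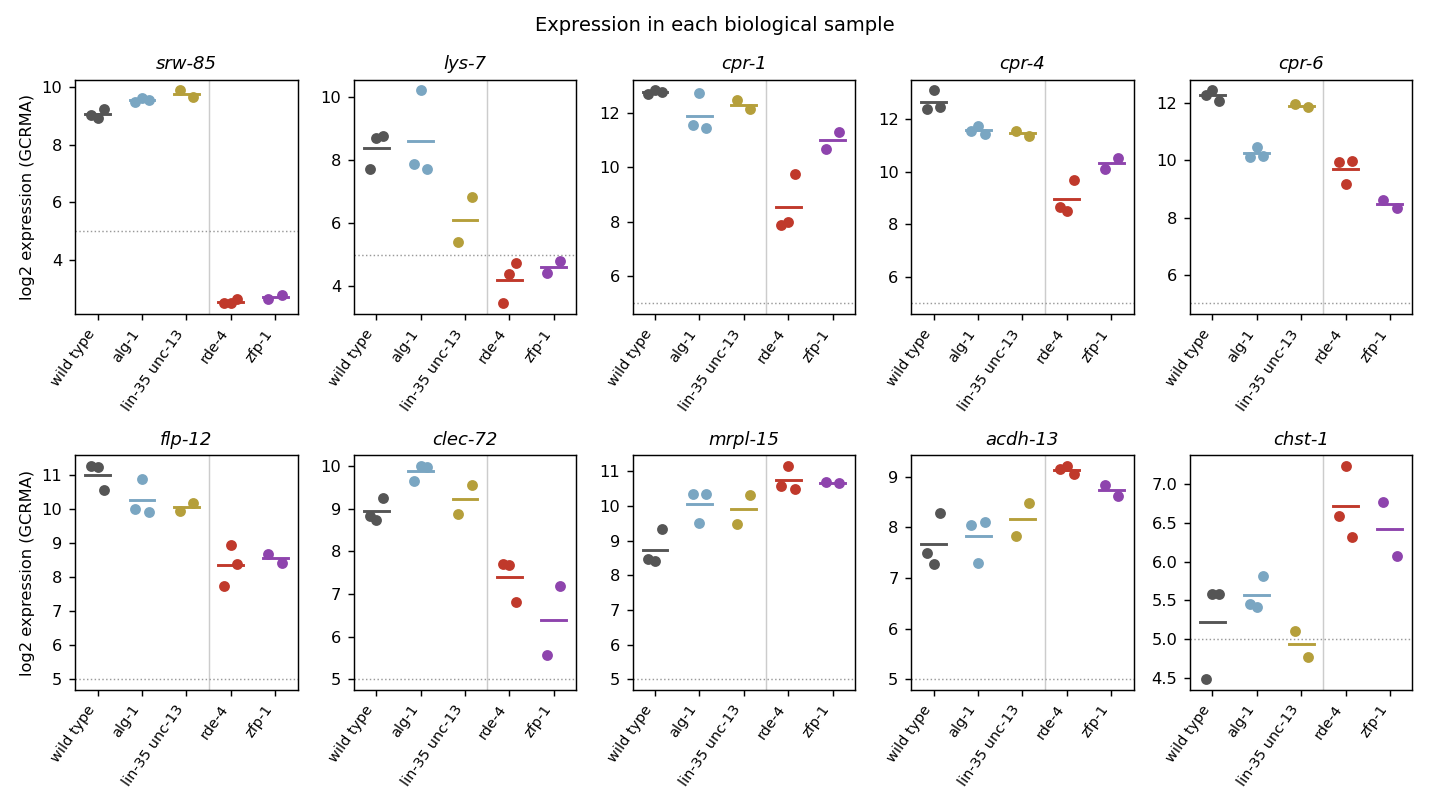
Expression of 10 genes in each of the 13 biological samples (log2, vertical axis), by strain (horizontal axis); points are samples, horizontal bars are group means, the dotted line is the value of 5 below which a gene counts as dim, and the vertical line divides the other 3 strains from rde-4 and zfp-1. For srw-85 the 5 samples of the 2 mutants lie at 2.49 to 2.77 and the 8 others at 8.93 to 9.89, whereas for cpr-6 the alg-1 samples lie close to rde-4.

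Of 7 tested genes of the cpr family, which encodes cathepsin B-like proteases of the intestinal lumen and of lysosomes, 5 fell, 1 rose and 1 did not pass. The list of cathepsin and aspartic proteases had 19 genes tested, of which 6 fell and 1 rose, where 6.96% and 2.65% of all genes did, and its median change was -0.27 against 0.01 over all genes. In 5 of the 6 falls no samples overlapped, where 1.14% of all genes tested fell without overlap. Those 5 also passed when wild type, alg-1 or lin-35 was in turn left out of the reference. Leaving out single populations gave 4 to 6 falls in this list, and wild-type replicate 3 alone as wild type gave 4. All intestinal markers summed to a log2 level of 15.93 to 16.46 in the 2 mutants and 16.476 to 16.81 in the other strains, without overlap. Without cpr-1 and cpr-6, which belong to that list, the ranges were 15.92 to 16.43 and 16.34 to 16.68. Of the 14 intestinal markers tested 3 fell, cpr-1, cpr-6 and the gut esterase gene ges-1, and their median change was -0.28. The part of this lower marker level in the protease result was not tested.

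cpr-1 measured 12.70, 12.82 and 12.75 in wild type, 11.54, 12.71 and 11.43 in alg-1, and 12.47 and 12.12 in lin-35. It measured 7.89, 7.97 and 9.75 in rde-4 and 10.66 and 11.30 in zfp-1. Every sample of the 2 mutants was below every other sample, with rde-4 far lower than zfp-1, and the change was -2.56 ± 0.33 (limma adjusted p = 0.00046). cpr-4 was 12.38, 13.08 and 12.44 in wild type, 11.54, 11.75 and 11.43 in alg-1, and 11.54 and 11.36 in lin-35. In rde-4 it was 8.65, 8.504 and 9.68, and in zfp-1 10.11 and 10.53, again without overlap (-2.25 ± 0.22, limma adjusted p = 3.4e-05). cpr-6 was 12.28, 12.44 and 12.08 in wild type, 10.11, 10.48 and 10.13 in alg-1, and 11.96 and 11.86 in lin-35. In rde-4 it was 9.94, 9.17 and 9.99, and in zfp-1 8.63 and 8.32. The change was -2.39 ± 0.16 (limma adjusted p = 1.9e-06), but the alg-1 samples lay near those of rde-4, and the gene differed among the 3 reference strains (limma F-test adjusted p = 0.00025).

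The rest of the cpr family, given in full after these values were seen, was not uniform. cpr-3 (-1.22 ± 0.16, limma adjusted p = 0.00049) and cpr-9 (-1.06 ± 0.21, limma adjusted p = 0.0081) also fell without overlap. cpr-5 differed by -0.63 ± 0.30 and did not pass, being lower in rde-4 alone (-1.38) and not in zfp-1 (0.12). cpr-2 had the opposite sign in the 2 mutants: it was 7.51 and 7.40 in zfp-1 and 2.13 to 3.09 in rde-4, with 2.37 to 5.19 in the other strains. The combined rise of cpr-2, 1.54 ± 0.33, therefore came from zfp-1 alone. cpz-1, a cathepsin Z-like protease named after its values were seen, fell by 1.39 with overlapping samples. lgmn-1, a legumain-like protease chosen after its values were seen, fell by 1.77 with no overlap (limma adjusted p = 0.00046).

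Lysozymes, saposins and antimicrobial peptides, which attack bacteria in the gut, had 34 genes tested, of which 8 fell (23.5%, against 6.96% of all genes) and 0 rose, and a median change of -0.42. Of the 8 falls, 4 were without overlap, as were 1.14% of all genes tested, and 4 also passed with each reference strain left out in turn. Leaving out single populations gave 5 to 10 falls, with 5 when either zfp-1 population was left out, and wild-type replicate 3 alone as wild type gave 6. lys-7, a lysozyme gene of the intestine, was 7.73, 8.70 and 8.78 in wild type, 7.89, 10.22 and 7.73 in alg-1, and 5.39 and 6.83 in lin-35. In rde-4 it was 3.45, 4.40 and 4.75 and in zfp-1 4.42 and 4.81, so that it was dim in all 5 samples. The change was -3.30 ± 0.45 (limma adjusted p = 0.00063), at least 6.53-fold, and the lin-35 samples were nearest to the 2 mutants. ilys-5, an invertebrate-type lysozyme gene, lay between 9.56 and 11.03 in the 2 mutants and between 11.124 and 13.51 in the other strains (-1.84 ± 0.34, limma adjusted p = 0.0055). dod-20, placed in the same list, fell by 2.06, mostly in rde-4 (-3.14, against -0.98 in zfp-1), and its samples overlapped.

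C-type lectins, secreted carbohydrate-binding proteins of which many respond to bacteria, had 44 genes tested, with 12 falls (27.3%, against 6.96% of all genes), 0 rises and a median change of -0.56. The median was -0.74 for rde-4 alone and -0.48 for zfp-1 alone. Of the 12 falls 2 were without overlap (1.14% of all genes tested were) and 4 passed with each reference strain left out in turn. Leaving out single populations gave 7 to 13 falls, with the lowest count when zfp-1 replicate 2 was left out, and wild-type replicate 3 alone gave 8. clec-72 was 8.83, 8.74 and 9.24 in wild type, 9.66, 10 and 9.98 in alg-1, and 8.88 and 9.56 in lin-35. It was 7.71, 7.68 and 6.81 in rde-4 and 5.57 and 7.18 in zfp-1. The 2 mutants were thus below every other sample (-2.46 ± 0.27, limma adjusted p = 0.00013). clec-17 fell by 1.61 ± 0.20 (limma adjusted p = 0.00035), its highest sample in the 2 mutants being 10.01 and its lowest in the other strains 10.11. clec-76 fell by 2.04 ± 0.29 (limma adjusted p = 0.00087), but here the alg-1 samples, 9.07 to 9.96, overlapped rde-4, 8.24 to 9.59.

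Not every gut gene moved. A list of intestinal identity and function, which holds the transcription factors and housekeeping products of that tissue, had 21 genes tested, 1 of them lower (ges-1, -1.19 ± 0.22, limma adjusted p = 0.0052) and 0 higher, with a median change of -0.12. A mixed list of intestinal response genes, named for its CUB-like members, had 18 tested with 2 falls. These included clc-1, a claudin-like and not a CUB-like gene (-1.04 ± 0.20, limma adjusted p = 0.0073). It was between 9.71 and 10.57 in the 2 mutants and between 10.75 and 11.95 elsewhere. The 2 falls are therefore not a count of CUB-like genes.

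Neuropeptide genes, whose products are cleaved into short signalling peptides, were also lower. Of 79 tested, 18 fell and 0 rose, where 6.96% of all genes fell, and 69 of the 79 had a change below 0. The median change was -0.51, and it was -0.59 for rde-4 alone and -0.33 for zfp-1 alone. Only 5 of the 18 falls were without overlap (1.14% of all genes tested were), and 5 passed with each reference strain left out in turn. Leaving out single populations gave 5 falls without either zfp-1 population, 9 without lin-35 replicate 1, 10 without rde-4 replicate 3, 11 without rde-4 replicate 1 and 26 without rde-4 replicate 2. Wild-type replicate 3 alone as wild type gave 7. Per sample, the list's median deviation from each gene's mean of the 5 group means was 0.41, 0.46 and 0.06 in wild type, -0.04, 0.30 and -0.07 in alg-1, and -0.01 and 0.12 in lin-35. It was -0.45, -0.02 and -0.46 in rde-4 and -0.12 and -0.22 in zfp-1. The 2 sides overlapped through rde-4 replicate 2, which lay above alg-1 replicates 1 and 3, and wild-type replicates 1 and 2 were the highest.

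flp-12, an FMRFamide-like peptide gene, was 11.25, 11.22 and 10.54 in wild type, 9.98, 10.87 and 9.89 in alg-1, and 9.93 and 10.16 in lin-35. It was 7.74, 8.92 and 8.37 in rde-4 and 8.68 and 8.40 in zfp-1. No samples overlapped, rde-4 and zfp-1 overlapped each other, and the change was -1.99 ± 0.24 (limma adjusted p = 0.00025). The neuropeptide-like gene nlp-11 was between 9.49 and 10.92 in the 2 mutants and between 11.118 and 12.18 in the other strains (-1.26 ± 0.17, limma adjusted p = 0.00046). The gap was narrow for nlp-9, with 9.204 as the highest value in the 2 mutants and 9.219 as the lowest elsewhere (-1.24 ± 0.16, limma adjusted p = 0.0005). Neuronal machinery around the peptides did not pass: 0 of 14 tested genes for peptide processing and dense core vesicles and 0 of 23 for synaptic vesicle release passed, with medians of -0.24 and 0.13. None of the 12 neuronal markers passed either. Their summed level was 15.503, 15.19 and 15.33 in rde-4, below every sample of the other 4 strains, and 15.74 and 15.71 in zfp-1, within the 15.56 to 15.87 of wild type, alg-1 and lin-35. The part of this lower marker level in the neuropeptide result was not tested.

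**Figure D2:**
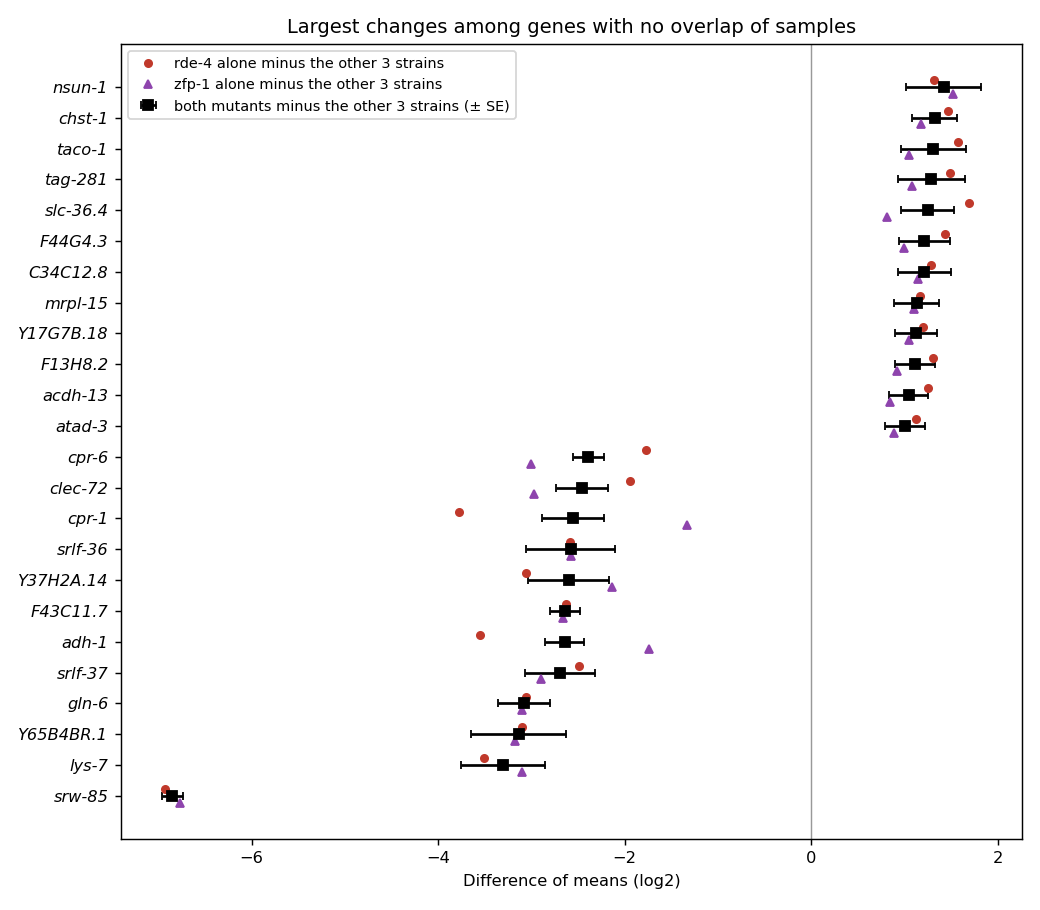
The 12 largest rises and 12 largest falls among genes that passed with no overlap of samples, as log2 differences from the mean of wild type, alg-1 and lin-35 (horizontal axis); squares with bars are both mutants together ± SE, circles rde-4 alone and triangles zfp-1 alone. srw-85 stands at -6.85, and cpr-1 (-3.78 for rde-4, -1.33 for zfp-1) and adh-1 (-3.55 and -1.74) show the widest gaps between the 2 mutants.

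Among metabolic genes single members fell, while most genes of their pathways did not pass. adh-1, an alcohol dehydrogenase gene, was 14.51, 14.64 and 14.04 in wild type, 12.56, 12.62 and 12.41 in alg-1, and 13.97 and 13.54 in lin-35. It was 10.08, 10.28 and 9.66 in rde-4 and 11.24 and 12.41 in zfp-1. The 2 mutants lay below the others (-2.64 ± 0.21, limma adjusted p = 7.2e-06), although the zfp-1 replicate 2 met the lowest alg-1 sample to within rounding. lipl-2, a lysosomal-type lipase gene, was between 6.01 and 6.79 in the 2 mutants and between 7.504 and 9.604 in the other strains (-2.23 ± 0.31, limma adjusted p = 0.00078). Its relative lipl-1 fell by 2.35 but was dim in alg-1 as well, at 3.60 to 3.79. The fatty acid-binding protein gene lbp-1 (-1.26 ± 0.19, limma adjusted p = 0.0013) was likewise low in alg-1, at 8.13 to 8.29, against 8.16 to 8.85 in the 2 mutants.

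Of 44 genes tested for fatty acid activation and beta-oxidation 6 fell (13.6%) and 1 rose (2.27%), with a median of -0.06. Of all genes tested, 6.96% fell and 2.65% rose. The peroxisomal acyl-CoA oxidase gene acox-3 fell without overlap (-1.08 ± 0.24, limma adjusted p = 0.016), and hacd-1, a hydroxyacyl-CoA dehydrogenase gene, with overlap (-1.78 ± 0.34, limma adjusted p = 0.0067). The count of falls was 1 without either zfp-1 population, 2 without rde-4 replicate 1, 3 without wild-type replicate 1, and 1 with wild-type replicate 3 alone. Of 22 genes of the glyoxylate cycle, gluconeogenesis and glycolysis 2 fell (9.09%). One of them, icl-1, which encodes the glyoxylate cycle enzyme, was 12.55 to 13.001 in wild type and 9.56 to 10.31 in alg-1, so that alg-1 overlapped the 2 mutants (9.17 to 11.03). None of 15 propionate pathway genes passed. Of 27 genes of the insulin and DAF-16 pathway 4 fell (14.8%) and 1 rose (3.70%), with 7 falls when wild-type replicate 3 was left out. dod-3, a DAF-16-regulated gene, was 7.47 to 8.44 in the 2 mutants and 9.04 to 10.84 in the other strains (-1.70 ± 0.20, limma adjusted p = 0.00017). pdk-1, the kinase gene upstream of AKT, rose by 1.24 ± 0.22 (limma adjusted p = 0.0045) and overlapped lin-35 and alg-1.

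Several further genes without a listed pathway were wholly lower in the 2 mutants. F43C11.7 was between 4.09 and 4.59 there and between 5.35 and 8.74 elsewhere (at least 3.87-fold, limma adjusted p = 7.3e-07). srlf-37 was 3.81 to 5.05 in the 2 mutants and 5.25 to 8.15 in the others (-2.69 ± 0.37, limma adjusted p = 0.00073), and srlf-36 was 4.25 to 6.68 and 7.21 to 10.55 (-2.58 ± 0.48, limma adjusted p = 0.006). Y37H2A.14 fell by 2.60 ± 0.44 (limma adjusted p = 0.0031) and Y65B4BR.1 by 3.14 ± 0.51 (limma adjusted p = 0.0024). Y65B4BR.1 was dim in the 2 mutants, at 2.34 to 2.80, and between 4.25 and 7.74 elsewhere, so its fold is bounded only as at least 1.67-fold. Like srw-85, all 5 genes passed when any 1 of the reference strains was left out. Y51H4A.25, named after its values were seen, was 5.66 to 6.60 in the 2 mutants and 7.38 to 7.93 in the other strains, and the latter 8 samples lay within a narrow range. The purine nucleoside phosphorylase gene pnp-1, likewise named later, was 10.43 to 11.31 against 11.85 to 12.48 (-1.18 ± 0.15, limma adjusted p = 0.00043).

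Rises were smaller, and several lists of mitochondrial and protein synthesis genes had rises and no falls. Of 58 mitochondrial ribosomal protein genes tested, 18 rose and 0 fell, where 2.65% of all genes rose, and 57 of the 58 had a change above 0. Their median change was 0.54, with 0.64 for rde-4 alone and 0.44 for zfp-1 alone. Of the 18 rises 9 were without overlap, where 0.705% of all genes tested rose without overlap. Of 31 genes tested for mitochondrial chaperones and protein import 7 rose (22.6%) and 0 fell, 29 had a change above 0, the median was 0.55, and 4 rises were without overlap. In contrast, 0 of 75 cytosolic ribosomal protein genes passed, 29 had a change above 0, and their median was -0.02. Of 32 proteasome subunit genes 0 passed, but 30 had a change above 0. Their median was 0.18, with 0.31 for rde-4 alone and 0.05 for zfp-1 alone.

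The counts of these rises depended on the reference samples. Per sample, the mitochondrial ribosomal list had a median deviation of -0.50, -0.41 and -0.13 in wild type, 0.00, -0.31 and -0.01 in alg-1, and -0.53 and 0.12 in lin-35. It was 0.35, 0.70 and 0.26 in rde-4 and 0.20 and 0.25 in zfp-1. All 5 samples of the 2 mutants were above the 8 others, but lin-35 replicate 2 came near to zfp-1 replicate 1, and wild-type replicates 1 and 2 and lin-35 replicate 1 were lowest. When wild type was left out of the reference 3 of the 58 passed, and 0 passed in all 3 such comparisons. With wild-type replicate 3 alone as wild type 1 passed. Leaving out single populations gave 1 without either zfp-1 population, 4 without lin-35 replicate 1, 5 without rde-4 replicate 1, 8 without wild-type replicate 1 or 2, 9 without rde-4 replicate 2, 10 without alg-1 replicate 1 and 11 without rde-4 replicate 3. It gave 30 without wild-type replicate 3 and 31 without lin-35 replicate 2. For the import list the count was 0 without wild type in the reference, 1 with wild-type replicate 3 alone, 0 without zfp-1 replicate 2, 1 without zfp-1 replicate 1 or lin-35 replicate 1, 2 without rde-4 replicate 1, 4 without rde-4 replicate 3 or wild-type replicate 1, and 13 without wild-type replicate 3 or lin-35 replicate 2.

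**Figure D3:**
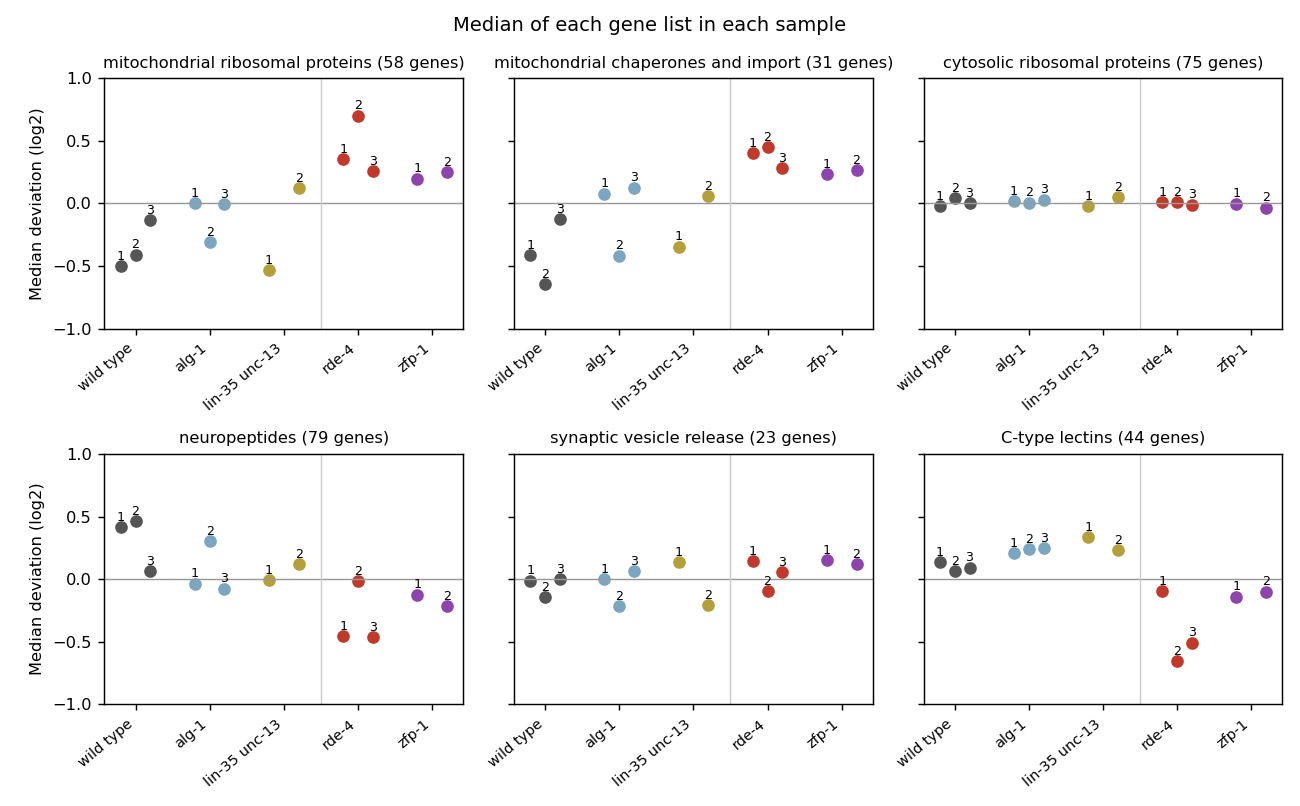
Median deviation of the genes of 6 lists from each gene's mean of the 5 group means (log2, vertical axis), one point per biological sample with its replicate number, by strain (horizontal axis). Mitochondrial ribosomal genes lie above 0 in all 5 samples of rde-4 and zfp-1 and lowest in wild-type replicate 1 and lin-35 replicate 1, cytosolic ribosomal genes lie near 0 throughout, and C-type lectins are lowest in rde-4 replicates 2 and 3.

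mrpl-15, a protein of the large mitochondrial ribosomal subunit, showed the pattern: it was 8.46, 8.42 and 9.35 in wild type, 10.36, 9.503 and 10.36 in alg-1, and 9.48 and 10.32 in lin-35. It was 10.57, 11.15 and 10.49 in rde-4 and 10.68 and 10.66 in zfp-1. The 2 mutants were highest, with alg-1 close below them and wild type lowest (1.13 ± 0.24, limma adjusted p = 0.013, no longer passing without wild type in the reference). mrps-21, of the small subunit, was between 10.21 and 10.99 in the 2 mutants and between 8.44 and 10.20 in the other strains, a gap of the size of rounding (0.84 ± 0.18, limma adjusted p = 0.015). mrps-26 rose by 1.34 ± 0.27 (limma adjusted p = 0.0093) but overlapped alg-1. The inner membrane translocase gene timm-17B.1 was 11.23 to 11.59 in the 2 mutants and 10.28 to 11.13 in the other strains (0.65 ± 0.16, limma adjusted p = 0.028). The outer membrane channel gene tomm-40 (0.57 ± 0.11, limma adjusted p = 0.008) and the processing peptidase gene mppa-1 (0.75 ± 0.18, limma adjusted p = 0.024) overlapped alg-1. atad-3, a mitochondrial membrane ATPase gene, was 10.44 to 10.97 against 8.45 to 10.40 (1.01 ± 0.22, limma adjusted p = 0.014). taco-1, which in mammals encodes a translational activator of a cytochrome oxidase subunit, rose by 1.31 ± 0.35 (limma adjusted p = 0.037).

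Of 30 aminoacyl-tRNA synthetase genes 4 rose and 0 fell, with a median of 0.31 and no gene without overlap, and 0 of them passed without wild type in the reference or with wild-type replicate 3 alone. Without single populations the count was 0 (either zfp-1 population, lin-35 replicate 1), 1 (wild-type replicate 1 or 2, alg-1 replicate 1, rde-4 replicate 1 or 2), 2 (rde-4 replicate 3) or 9 (wild-type replicate 3). The 4 rises were 13.3% of the synthetase genes tested, against 2.65% of all genes. They included the methionyl, asparaginyl and prolyl enzymes mars-1 (0.66 ± 0.15, limma adjusted p = 0.021), nars-1 (0.61 ± 0.16, limma adjusted p = 0.034) and pars-1 (0.57 ± 0.15, limma adjusted p = 0.041). The largest rise without overlap was nsun-1, which encodes a ribosomal RNA methyltransferase: it was 9.603 to 10.04 in the 2 mutants, 9.27, 7.35 and 9.24 in alg-1, 9.41 and 9.47 in lin-35, and 6.18 to 8.54 in wild type. Its change of 1.42 ± 0.41 had a limma adjusted p of 0.049, and it no longer passed when wild-type replicate 1 or 2 was left out. A list of ribosome biogenesis and nucleolar genes, chosen after values were seen, had 45 tested, with 8 rises (17.8%), 0 falls and a median of 0.56. Of these 1 passed without wild type in the reference and 0 with wild-type replicate 3 alone. Without single populations the count was 0 (either zfp-1 population), 1 (lin-35 replicate 1), 2 (rde-4 replicate 1), 3 (wild-type replicate 1 or 2) or 16 (wild-type replicate 3). Of 39 cytosolic and ER heat shock genes 2 rose and 1 fell, the risers being the chaperonin subunit genes cct-6 (0.69 ± 0.14, limma adjusted p = 0.0085) and cct-8 (0.86 ± 0.22, limma adjusted p = 0.033).

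A smaller set of rises passed whichever reference strain was left out, a check that varied the reference and not the 2 mutants. Of the 229 rises, 75 still passed without wild type, 197 without alg-1, 110 without lin-35, and 30 (13.1%) in all 3 cases, of which 12 were without overlap. Of the 602 falls, 409, 569 and 197 still passed, and 19.3% did so in all 3 cases, of which 61 were without overlap. Passing in all 3 cases did not mean that both mutants changed. The 30 rises included 5 lido genes and E01G4.5, with zfp-1 effects of 0.37 for lido-11 and -0.03 for E01G4.5. The falls included fbxa-5 (0.57 in zfp-1 alone) and C50B6.7 (-0.47 in rde-4 alone). The 12 rises without overlap held 3 of the 12 largest such rises: chst-1, F13H8.2 and acdh-13. chst-1, a carbohydrate sulfotransferase gene, was 4.49, 5.59 and 5.58 in wild type, 5.46, 5.42 and 5.82 in alg-1, and 5.11 and 4.77 in lin-35. It was 6.59, 7.23 and 6.32 in rde-4 and 6.77 and 6.07 in zfp-1, all above the others (1.33 ± 0.24, limma adjusted p = 0.0052). acdh-13, an acyl-CoA dehydrogenase gene, was 7.27 to 8.27 in wild type, 7.30 to 8.11 in alg-1, 7.83 and 8.49 in lin-35, 9.06 to 9.21 in rde-4 and 8.63 and 8.83 in zfp-1 (1.05 ± 0.21, limma adjusted p = 0.0096). F13H8.2 lay between 8.32 and 9.30 in the 2 mutants and between 6.97 and 8.19 in the other strains (1.12 ± 0.21, limma adjusted p = 0.0073). The other 9, named after their values were seen, included the translation factor genes eif-2D (0.95), eif-3.E (0.69) and tsfm-1 (0.71), the last mitochondrial, and coa-4 (0.92), which encodes a cytochrome oxidase assembly factor.

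**Figure D4:**
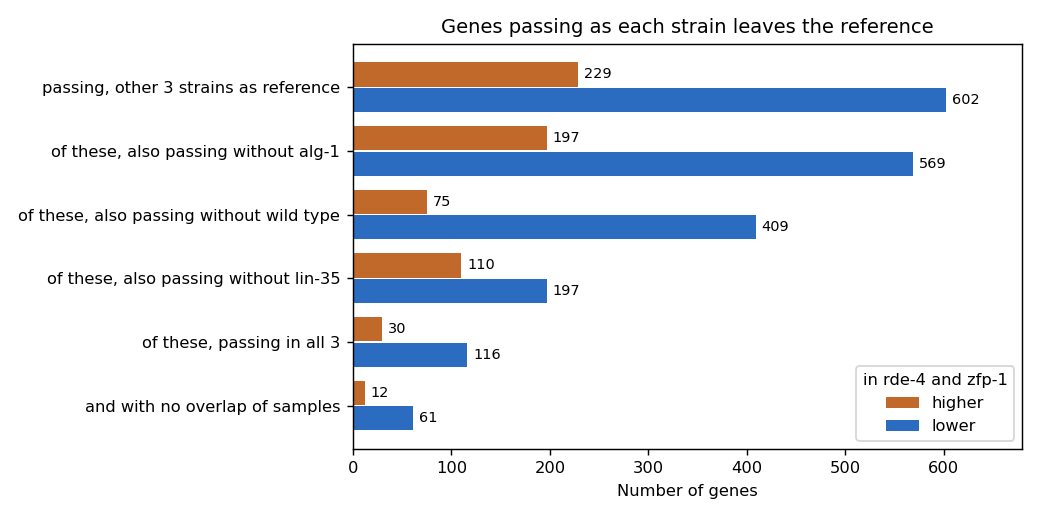
Number of genes (horizontal axis) higher or lower in rde-4 and zfp-1 that passed with all 3 reference strains, and of these the number that also passed when alg-1, wild type or lin-35 was left out, in all 3 cases, and in all 3 cases with no overlap of samples. Rises went from 229 to 75 without wild type, and falls from 602 to 197 without lin-35.

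A share of the falls came with a high level in lin-35 alone. In 19.8% of the 602 falls lin-35 was the only strain with any sample at 5 or more, and 1 of these passed in all 3 cases. The gene-wise differences among wild type, alg-1 and lin-35 passed for 859 genes (9.93% of genes tested) in limma's F-test, and for 312 of the 602 falls and 35 of the 229 rises. Germ line markers were an example: all 7 tested fell, and pgl-3, a gene for a protein of germ granules, was 10.77 and 10.83 in lin-35 and between 2.62 and 3.27 in every other sample. The summed level of the 13 germ line markers was 6.81 to 14.12 in the reference strains and 7.06 to 7.75 in the 2 mutants. The intracellular pathogen response genes had 23 tested, 18 falls (78.3%, against 6.96% of all genes) and a median of -1.75. Of the 18, 16 had only lin-35 at 5 or more, among them pals-2 at 8.62 and 8.59 in lin-35 and 2.13 to 2.25 elsewhere, and 0 passed without lin-35 in the reference. Of 69 F-box, BTB and MATH domain genes 16 fell (10 without zfp-1 replicate 1), 7 with only lin-35 at 5 or more, and 3 passed without lin-35. Of those 3, fbxa-5 was lower in rde-4 alone (-3.38, against 0.57 in zfp-1). The 16 falls were 23.2% of that list. gln-6, a glutamine synthetase gene, counted as a fall without overlap (-3.08 ± 0.28, limma adjusted p = 2.2e-05). It was 9.93 and 10.38 in lin-35, 3.85 to 5.62 in wild type and alg-1, and 2.92 to 3.72 in the 2 mutants, so most of the change was a high value in lin-35.

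Of DNA replication genes 3 of 35 fell (8.57%) and of cell cycle genes 4 of 40 (10%), near the 6.96% of all genes, and 0 of each passed without lin-35. The 3 became 0 without either zfp-1 population or rde-4 replicate 3 and 1 without wild-type replicate 2, rde-4 replicate 1 or lin-35 replicate 2, and the 4 became 2 without wild-type replicate 2, either zfp-1 population, rde-4 replicate 3 or lin-35 replicate 2. orc-5, of the origin recognition complex, was 10.85 and 11.13 in lin-35 and 7.48 to 8.80 in all other samples, and without lin-35 in the reference its change turned from -0.90 to 0.032. Chemoreceptor genes had 27 tested of 1276 with a probe set, with 6 falls and 2 rises, and 3 falls without either zfp-1 population or without rde-4 replicate 1 or 3. The 6 falls were 22.2% and the 2 rises 7.41% of the chemoreceptor genes tested, against 6.96% and 2.65% of all genes. Of the 6 falls, 3 had only lin-35 at 5 or more, such as srd-4 (7.65 and 7.86 in lin-35, 2.24 to 2.33 elsewhere), and srw-85 was the 1 fall that remained in all 3 cases.

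**Figure D5:**
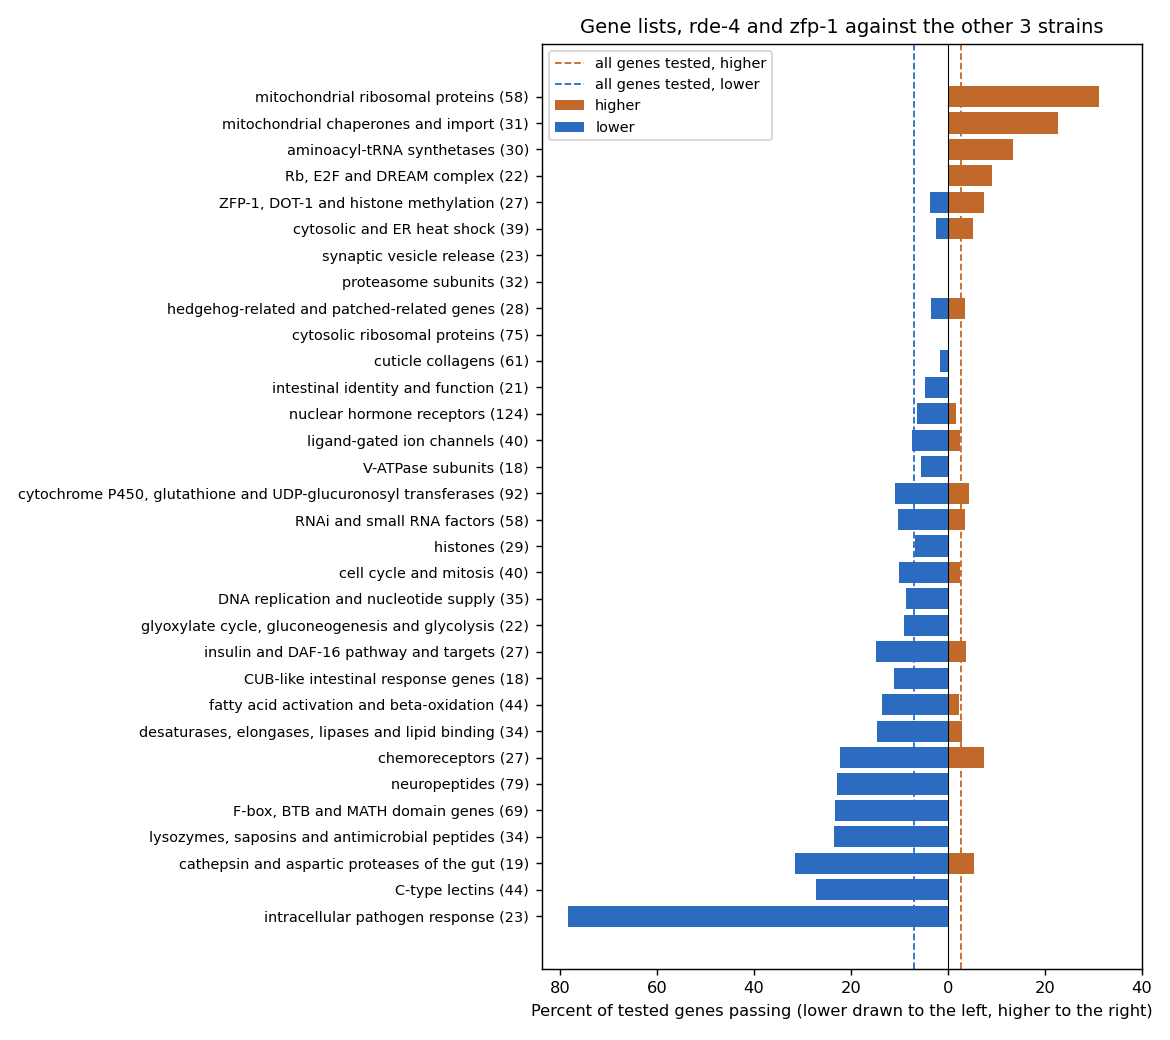
Percent of the genes tested of each list that passed as higher (bars to the right) or lower (bars to the left) in rde-4 and zfp-1; the number tested is in brackets, dashed lines mark all genes tested (2.65% higher, 6.96% lower), and lists with at least 18 genes tested are drawn. The intracellular pathogen response stands furthest to the left, with 16 of its 18 falls having only lin-35 at 5 or more, and mitochondrial ribosomal proteins stand furthest to the right at 31%.

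Genes of the RNA interference pathway itself did not move together: 3.45% of those tested rose and 10.3% fell, against 2.65% and 6.96% of all genes. Of 58 RNAi and small RNA factors tested 2 rose and 6 fell (2 without either zfp-1 population, 3 without lin-35 replicate 1), and the median was 0.02. Of the 6 falls 1 passed with each reference strain left out in turn, that of rde-4 itself. The rde-4 transcript, mutated in 1 of the 2 strains, was 7.60, 7.74 and 7.499 in rde-4, 10.71 and 11.098 in zfp-1 and 10.26 to 11.97 in the other strains, so its combined fall of 1.65 ± 0.13 (limma adjusted p = 5.3e-06) came from the rde-4 strain. zfp-1 differed by 0.06 ± 0.14 and was 13.55 and 13.49 in its own mutant, within the range of the other samples (12.89 to 13.69). alg-1 was higher in the combined mutants by 1.45 ± 0.41 (limma adjusted p = 0.049), with means of 10.24 in rde-4, 10.14 in zfp-1, 9.22 in wild type, 9.23 in lin-35 and 7.78 in its own mutant. Without the alg-1 strain in the reference its change was 0.97 and did not pass (limma adjusted p = 0.18). lin-35 was higher by 0.92 ± 0.16 (limma adjusted p = 0.0038), and by 0.36 without the lin-35 strain in the reference (limma adjusted p = 0.21). unc-13 differed by 0.13 ± 0.12. hrde-1, a germ line Argonaute gene, was 7.68 and 8.23 in lin-35 and at most 3.62 elsewhere. Of 8 tested endogenous siRNA targets 1 passed, E01G4.5, at 9.497, 9.53 and 8.84 in rde-4, 5.42 and 5.57 in zfp-1, and 4.43 to 6.80 in the other strains, so that the rise was in rde-4 alone.

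The 2 mutants were also compared directly, and 118 genes differed (1.36% of genes tested, limma), 75 of them higher in rde-4 and 43 higher in zfp-1. Of the 831 genes that passed the combined comparison 47 differed between the 2 mutants, and of the 160 without overlap 5 did. Neither this contrast nor the F-test among the reference strains passed for 449 of the 831, 179 of them rises and 270 falls. The lido genes rose unevenly: 5 of 8 tested rose (62.5%, against 2.65% of all genes), with a median change of 2.23 for rde-4 alone and 0.28 for zfp-1 alone. lido-11 was 7.18, 6.83 and 6.70 in rde-4 but 3.105 and 3.63 in zfp-1, against 2.51 to 3.39 in the other strains. Its combined change, 2.14 ± 0.13 (limma adjusted p = 7.2e-07), therefore describes rde-4 only. C50B6.7 was uneven in the other direction, at 5.67 and 5.52 in zfp-1, 8.75, 9.02 and 9.06 in rde-4 and 8.28 to 10.19 in the other strains.

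By chromosome, falls were 10.2% of the 1630 genes tested on V and 5.13% of the 1443 on I, with 5.82% to 7.00% on II, III, IV and X. Rises were 1.01% of the 1289 genes on X and 2.15% to 3.53% elsewhere. Chromosome V, with 1630 of the 8653 genes tested, carried 34 of the 99 falls without overlap (1.14% of all genes tested), and X, with 1289, carried 19. Those on V included srw-85, cpr-1, cpr-4, lys-7, adh-1 and lipl-2. Large gene families of receptors and of gut proteins lie on V, so the genes of that chromosome are not independent of the lists above.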

How the data were processed

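Total RNA of 13 biological samples (5 ug each) was labelled with biotin and hybridised to 15 Affymetrix arrays. Per the submitters' processing notes the authors made the deposited log2 values with GCRMA, which adjusts background by probe composition, normalises arrays to each other and summarises probe sets. Its version and settings, and the genome build, were not given in the sources used here. Arrays have no read depth, and their number limits the precision.

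Of 22625 probe sets, 77 controls, 887 with several genes and 895 not listed in the annotation were left out. Of the 20766 with 1 gene, 20701 matched RefSeq (WBcel235), used for names, chromosomes and gene order. For each of 17118 genes the probe set with the highest mean was kept, and the 8653 genes at 5 or more in at least 2 of 13 samples were tested; the other 8465 were not. A gene that is high in 1 group could enter through that group alone. Arrays of one sample were averaged.

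All 5 groups were fitted in R 4.3.3 with limma 3.58.1 (lmFit, eBayes, 8 residual and 3.49 prior degrees of freedom, median residual SD 0.32). The contrast was the mean of the rde-4 and zfp-1 group means minus the mean of the wild-type, alg-1 and lin-35 group means, two-sided, with Benjamini-Hochberg adjustment over all genes tested at 0.05. "Without overlap" means that all 5 samples lay beyond all 8. Further contrasts were rde-4 against zfp-1, a moderated F-test among the 3 reference strains, and all 6 pairs, where the largest p was adjusted. Where 1 side was wholly below 5, its samples were set to 5 for a lower bound of the fold. Among 132 genes that passed and had further probe sets, 0 had one of opposite sign. Same-numbered samples of different groups deviated together in part (23 pairs, correlations of -0.27 to 0.38, median 0.15, 14 above 0.1). The numbers were not taken to pair samples because the labels name no shared day or batch. Whether same-numbered samples shared their handling was not tested, and with a replicate block 1139 genes passed in place of 831.

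The comparison, the 38 gene lists and the 9 marker lists were chosen with earlier results of these data known, and lists of chromosomes and a ribosome biogenesis list were added. Lists are described by counts and medians. By rule, the text names 12 genes without overlap in each direction with the greatest change, each gene mutated in a strain, the members of a list with the lowest limma p (3 at most, if passing), genes passing all 6 pairs, the 4 largest rises and 4 largest falls with overlap, and the 3 largest differences each way between rde-4 and zfp-1; others are marked as named later. The fit was tested on simulated data. Alternatives covered normalisation, filters, technical arrays, the block, weights, the variance prior, thresholds, the make-up of the reference, probe sets and each sample left out; alg-1 replicates 1 and 3 as 1 sample and wild-type replicate 3 alone were added after seeing the data. Promoter and protein sequences were not analysed here. Figures were drawn with matplotlib 3.10.9.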

Additional observations from a re-analysis of the deposited data

Results flagged for a closer look

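Among the genes named by rule that passed the combined comparison, 13 had effects in rde-4 and in zfp-1 that differed. Each effect was taken against the mean of the same 3 reference strains. The difference was tested in limma's direct contrast of the 2 mutants (rde-4 minus zfp-1 on the log2 scale). P-values were adjusted over all genes tested, with 3 samples against 2. These 13 are only a part of the genes that differed in that contrast, whose count is given above. Some were named because their difference between the 2 mutants was among the largest, so their being listed here followed from that choice. Lower in rde-4 than in zfp-1 were cpr-2 (-4.92, limma adjusted p = 0.00053), F11A5.9 (-4.17, limma adjusted p = 0.0061), fbxa-5 (-3.95, limma adjusted p = 6.7e-05), T19C9.8 (-3.92, limma adjusted p = 0.024) and rde-4 itself (-3.29, limma adjusted p = 1e-05). The protease gene cpr-1 (-2.44, limma adjusted p = 0.047) and the alcohol dehydrogenase gene adh-1 (-1.81, limma adjusted p = 0.022) were below the reference in both mutants, but more so in rde-4. For cpr-1 the effect in zfp-1 alone, -1.33, did not pass (limma adjusted p = 0.15). All rde-4 samples of cpr-2 and fbxa-5 were dim (below 5), so their differences are bounded only as at least 5.47-fold and 2.58-fold. F11A5.9 was 3.48, 5.69 and 3.34 in rde-4 against 8.12 and 8.56 in zfp-1, and the F-box gene fbxa-5 was 2.18, 2.103 and 2.95 against 6.54 and 6.19. T19C9.8 was 6.54, 3.87 and 3.89 in rde-4 against 8.72 and 8.65 in zfp-1, and for both F11A5.9 and T19C9.8 2 of the 3 rde-4 samples were dim.

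Higher in rde-4 than in zfp-1 were E01G4.5 (3.79, limma adjusted p = 0.00014), lido-11 (3.53, limma adjusted p = 1e-05), C50B6.7 (3.34, limma adjusted p = 0.00061), lido-12 (2.73, limma adjusted p = 0.00014), lido-9 (1.93, limma adjusted p = 0.015) and cpr-6 (1.23, limma adjusted p = 0.044). lido-11 was dim in zfp-1, which bounds its difference as at least 3.74-fold. For E01G4.5 and the 3 lido genes the zfp-1 effect alone was between -0.03 and 0.52, while for C50B6.7 it was -3.81 and the rde-4 effect -0.47. cpr-6 was lower than the reference in both, by more in zfp-1 (-2.999) than in rde-4 (-1.77).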

How the results depend on the processing

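Of the named genes that passed, srw-85 alone passed under every alternative; each of the other 11 largest falls failed only with the strain as a random block. Of the main contrast, 831 genes passed as reported, 551 (90 higher, 461 lower) without wild type in the reference, 1220 without alg-1, 358 without lin-35, 430 with wild-type replicate 3 alone, 342 and 1513 at thresholds of 0.01 and 0.1, 2 with the strain as random block, and 350 to 1206 with single samples left out. Genes that passed without overlap numbered 160, 516 without alg-1 in the reference, 100 with wild-type replicate 3 alone, 79 at 0.01, 2 with the strain block, and 92 to 245 with single samples left out. For all 6 pairs, 1 became 2 without wild type and 10 without alg-1, where fewer pairs are compared. Between rde-4 and zfp-1, 118 became 76 without a filter, 41 at 0.01, 205 at 0.1 and 27 to 144 with single samples left out. Among the reference strains, 859 became 528 with alg-1 replicates 1 and 3 as 1 sample, 499 with wild-type replicate 3 alone, 400 at 0.01, 1340 at 0.1 and 525 to 1080 with single samples left out. A replicate block gave 1139 (407 higher, 732 lower) in the main contrast. Without lin-35 in the reference 3 named genes turned from a fall to a rise: orc-5 0.032, cdc-7 0.31 and vha-7 0.18, and in each lin-35 had the highest mean of the 5 strains. Where 1 sample remained in a group, it was assumed to vary like the others. The causes of the remaining changes were not tested. Dim genes, with 8465 untested, limit what could be seen.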

Other observations

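The remaining gene lists held few genes that passed, or passed near the shares of all genes (2.65% higher, 6.96% lower). Of 124 nuclear hormone receptor genes tested 2 rose and 8 fell, and nhr-99 was the clearest, at 5.11 to 5.86 in rde-4 and zfp-1 and 6.10 to 7.14 in the other strains (-1.01 ± 0.13, limma adjusted p = 0.00032). The 8 falls became 1 without zfp-1 replicate 1, 2 without lin-35 replicate 1, 3 without zfp-1 replicate 2, wild-type replicate 1, alg-1 replicate 1 or rde-4 replicate 3, 4 without rde-4 replicate 1, and 5 without wild-type replicate 2 or alg-1 replicate 2. Of 92 cytochrome P450, glutathione transferase and UDP-glucuronosyltransferase genes 4 rose and 10 fell (the 10 became 3, 2 and 6 without zfp-1 replicate 1, zfp-1 replicate 2 and lin-35 replicate 1, and the 4 became 1, 2 and 7 without zfp-1 replicate 1, zfp-1 replicate 2 and lin-35 replicate 2). cyp-14A5 was 6.67 to 7.12 in the 2 mutants and 7.27 to 9.46 in the other strains, while cyp-13A2 was 5.35 to 6.07 in rde-4, 5.19 and 4.13 in zfp-1 and at most 4.18 elsewhere, so that zfp-1 replicate 2 overlapped alg-1. Of 61 cuticle collagen genes 1 fell, of 29 histone genes 2, of 18 V-ATPase subunit genes 1 and of 14 molting genes 1, with no rises. Of 40 ligand-gated channel genes 1 rose and 3 fell, of 28 hedgehog-related and patched-related genes 1 rose and 1 fell, and of 13 heterochronic genes 1 rose. Among 34 desaturase, lipase and lipid-binding genes 1 rose and 5 fell (3 without zfp-1 replicate 1). For the chromatin lists, 2 of 22 Rb, E2F and DREAM genes rose, lin-35 itself, where the reference holds its mutant, and the heterochromatin protein gene hpl-1 (0.58 ± 0.15, limma adjusted p = 0.038), and of 27 genes for ZFP-1, DOT-1 and histone methylation 2 rose and 1 fell.

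Markers of other tissues were spread without a passing gene: body wall muscle (0 of 12), neurons (0 of 12), pharynx (0 of 8), hypodermis (0 of 8), glia (0 of 5), coelomocytes (0 of 1) and older animals (0 of 1). The summed pharynx level ran from 10.25 to 12.13 in rde-4 and zfp-1 and from 11.26 to 13.44 in the other strains, and hypodermis from 16.34 to 17.02 and from 16.77 to 17.03.

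Some large changes with overlapping samples varied strongly within strains. fmo-2, a flavin monooxygenase gene, was 3.38, 8.64 and 2.73 in rde-4 and 7.53 and 5.94 in zfp-1, against 7.46 to 10.76 in the other strains, so rde-4 replicate 2 and zfp-1 replicate 1 lay within the range of the other strains. argk-1, an arginine kinase gene, was 6.41 to 7.504 in the 2 mutants, 4.00 to 5.72 in 7 of the 8 other samples and 7.99 in alg-1 replicate 2. haao-1, a gene of tryptophan breakdown, was 7.59 to 8.62 in the 2 mutants and 7.56 to 7.68 in alg-1, but 4.17 to 7.03 in wild type and lin-35.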
